A study of Mus musculus with 18 samples.

Results

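The 3 genes described here, C1qa, C1qb and C1qc, encode the chains of complement C1q and were taken as the rows of the deposited expression table that carry these symbols. Each symbol had 1 row, so the set holds 3 of the 16221 genes in the table. The identifiers in the table are NM_007572 for C1qa, NM_009777 for C1qb and NM_007574 for C1qc. The series measured messenger RNA of sorted C57BL/6 mouse cells in 18 libraries, 2 for each of 9 populations. Macrophages came from 7 places: microglia from the brain, and macrophages from the peritoneal cavity, spleen, liver (Kupffer cells), lung, small intestine and large intestine. Monocytes and neutrophils came from bone marrow and stand as the other myeloid cells of the study. By their titles the libraries come from 2 experiments. Experiment 1 holds the microglia and the peritoneal, small intestine and large intestine macrophages, and experiment 2 the lung, Kupffer and spleen macrophages with both bone marrow populations. Every population was made in 1 experiment only, so population and experiment cannot be told apart between them. No treatment or mutation is named for any group, and the sources used here give neither the age and sex of the mice nor the sorting gates. Nothing says whether the 2 libraries of a population came from separate mice, so the p-values measure the spread between these libraries, which may be technical.

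C1q is the recognition part of C1, the complex that starts the classical pathway of complement. Its A, B and C chains assemble into a bouquet of collagen-like stalks that end in globular heads, and the heads bind antibody in immune complexes, dying cells and other surfaces. Unlike most complement proteins, which the liver secretes, C1q is made mainly by macrophages and related cells, and in the brain microglia are the main source, where C1q marks synapses for removal. Of the proteases bound to C1q, C1r activates C1s, and C1s cuts C4 and C2. The resulting enzyme cuts C3.

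The 3 genes lie side by side on mouse chromosome 4, in the order C1qb, C1qc and C1qa, in the RefSeq annotation. Since their transcripts moved together across the 9 populations, the promoters are shown for the genes that RefSeq's table of promoters holds, which are 2 of the 3. Each window runs from 250 bases before to 50 bases after the start of the gene, in RefSeq GRCm38.p6, on the strand of the gene. The C1qb window is chr4:136886151-136886450 on the minus strand, and the C1qc window is chr4:136892865-136893164 on the minus strand. Capitals mark the matches of the motifs searched.
C1qb: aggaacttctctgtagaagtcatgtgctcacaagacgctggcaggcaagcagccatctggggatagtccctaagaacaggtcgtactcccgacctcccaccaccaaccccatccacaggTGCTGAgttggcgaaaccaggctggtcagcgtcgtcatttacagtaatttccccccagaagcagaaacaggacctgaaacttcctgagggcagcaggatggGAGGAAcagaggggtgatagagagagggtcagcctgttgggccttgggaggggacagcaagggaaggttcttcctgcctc
C1qc: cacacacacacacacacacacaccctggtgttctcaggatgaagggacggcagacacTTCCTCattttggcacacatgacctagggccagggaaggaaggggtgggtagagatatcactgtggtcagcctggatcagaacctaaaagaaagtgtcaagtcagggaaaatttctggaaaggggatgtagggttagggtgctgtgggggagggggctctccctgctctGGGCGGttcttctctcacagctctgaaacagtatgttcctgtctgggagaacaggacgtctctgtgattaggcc
Both strands were searched for 6 motifs. GAGGAA is an ETS core of the kind that PU.1 binds, GGAANNGAA joins an ETS with an IRF element, and TGCTGA forms the core of the Maf recognition element. The sites of AP-1 (TGACTCA), of the TATA-binding protein (TATAAA) and of Sp1 (GGGCGG) were the others. C1qb held GAGGAA 30 bases before its start and TGCTGA 131 bases before it. C1qc held GAGGAA on the opposite strand 193 bases before its start and GGGCGG 24 bases before it. No 2 of these matches overlapped. Of 32851 promoters in the table, 28.3% held GAGGAA, 19.5% held TGCTGA and 35.7% held GGGCGG in a window of the same length. The other motifs, absent from both windows, were in 8.24% (GGAANNGAA), 5.2% (TGACTCA) and 13.6% (TATAAA) of promoters. A match describes letters in a window and not a bound site.

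The deposited values are here called normalised reads. In each library 86.6% to 88.9% of the nonzero values were multiples of 1 step, here taken as the worth of 1 read, and in units of it the libraries held 588856 to 1581363 reads in genes. C1q transcripts were abundant in 6 of the 7 macrophage populations. C1qa ranged from 1246.2 to 9807.1 normalised reads in the 12 libraries of these 6 populations, with a median of 6559.4. C1qb ranged from 5535.3 to 11823.4 in them, with a median of 10051.6, and C1qc from 1382.0 to 5527.6, with a median of 3071.3. Lung macrophages stood apart, at 22.1 to 90.4 normalised reads for any chain in either library. The summed level of the 3 chains made up 2.92% of all normalised reads in microglia, 2.24% in large intestine, 2.22% in small intestine, 2.16% in Kupffer, 1.76% in spleen and 1.21% in peritoneal macrophages (means of 2 libraries). It made up 0.0187% in lung macrophages, 0.0373% in monocytes and 0.0378% in neutrophils. In such bulk samples, fewer cells that make a transcript and less of it in each cell cannot be told apart.

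**Figure D1:**
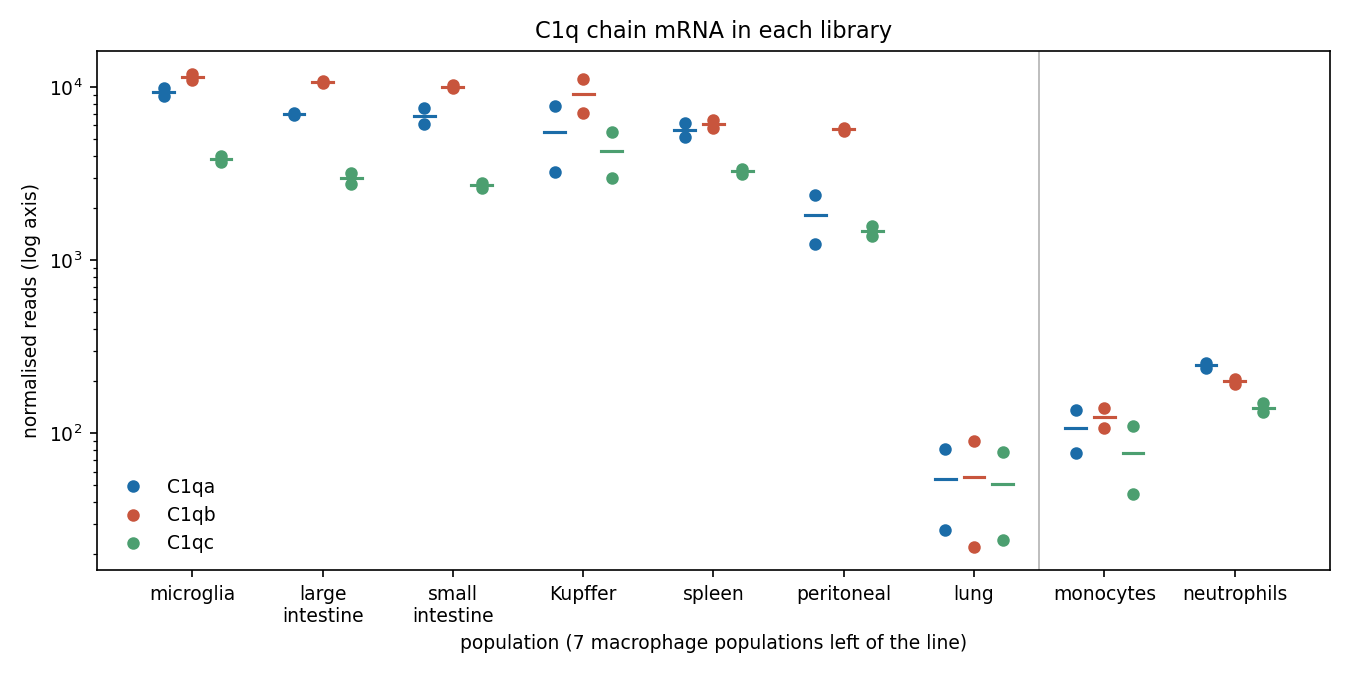
Level of each chain in every library, in normalised reads on a log axis, with 2 points per population and chain and a bar at their mean. The 12 libraries of 6 macrophage populations lie at 1246.2 or above, and the lung, monocyte and neutrophil libraries at 255.0 or below.

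Microglia had the highest mean of the 3 chains on the log2 scale. C1qa, the A chain, measured 8849.3 and 9807.1 normalised reads in the microglia libraries, and C1qb, the B chain, 10981.7 and 11823.4. C1qc, the C chain, measured 3982.1 and 3665.5 there. For C1qa no library of any other population reached the microglia libraries, whereas 1 Kupffer library lay within their range for C1qb and above it for C1qc.

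The gut macrophages came next. Large intestine macrophages measured 6914.6 and 7087.1 normalised reads for C1qa, 10552.9 and 10830.4 for C1qb, and 2757.6 and 3199.5 for C1qc. Small intestine macrophages measured 6101.1 and 7577.7 for C1qa, 9882.8 and 10220.4 for C1qb, and 2803.4 and 2608.2 for C1qc. The libraries of the 2 gut populations overlapped for C1qa and C1qc and did not for C1qb. Epithelial marker transcripts (Epcam, Krt8, Krt18 and Cdh1, 4 of 4 detected in each gut population) summed to 265.5 to 1063.4 normalised reads in the gut libraries and to 1.89 to 80.6 in all the others, and their part in the C1q levels was not tested.

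Kupffer cells varied most between their libraries among the populations with high C1q. Their libraries measured 7759.6 and 3244.2 normalised reads for C1qa, 11078.0 and 7116.2 for C1qb, and 5527.6 and 2985.8 for C1qc, so that the first was higher by 2.39 times, 1.56 times and 1.85 times. The same first library also held more hepatocyte transcripts (Alb, Apoa1 and Ttr summed to 1979.4, against 304.8 in the second) and more neutrophil transcripts (6 markers summed to 1618.7, against 168.6). Their part in the difference was not tested. Spleen macrophages measured 5148.8 and 6204.1 for C1qa, 6428.0 and 5759.3 for C1qb, and 3346.8 and 3156.8 for C1qc, a tighter pair. Transcripts of other cells were measured in the spleen libraries too. The 6 neutrophil markers summed to 1354.5 and 2460.0 there, 4 erythroid markers to 5680.4 and 4363.2, and 3 B cell markers to 77.7 and 111.0, and their part in the C1q levels was not tested.

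Peritoneal macrophages were the lowest of these 6 populations for C1qa and C1qc and close to spleen for C1qb. Their libraries measured 5828.0 and 5535.3 normalised reads for C1qb, 1246.2 and 2381.3 for C1qa, and 1583.8 and 1382.0 for C1qc. Both peritoneal libraries lay below all libraries of the other 5 populations with high C1q for C1qa and C1qc, and the first lay above 1 spleen library for C1qb.

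Lung macrophages had 80.9 and 27.7 normalised reads of C1qa, 90.4 and 22.1 of C1qb, and 77.8 and 24.4 of C1qc. These correspond to 128 and 25 reads of C1qa, 143 and 20 of C1qb, and 123 and 22 of C1qc, all above the 3 reads that a count of 0 allows. The first library lay within the range of the monocyte libraries for C1qa and C1qc and below it for C1qb, and the second held less of each chain than any other library of the series. The lung libraries carried the markers of lung macrophages. Chil3, a chitinase-like protein, measured 4672.3 and 8071.9, Car4 547.4 and 510.3, and Siglecf, a sialic acid receptor, 196.6 and 229.1. Car4, Siglecf and Ear2 (3219.1 and 2039.2) were higher in both lung libraries than in any other library. Chil3 was higher in neutrophils, at 11898.4 and 11522.2. Marco, at 527.2 and 853.5 in lung, measured 839.0 and 1117.4 in Kupffer cells. All 5 general macrophage markers were detected in the lung libraries. Their sum was 1651.8 and 1593.0 normalised reads, against 3553.0 to 11072.5 in the libraries of the other macrophages. Csf1r, at 405.2 and 257.9, and Adgre1, at 141.6 and 105.2, lay below every library of the other macrophages. Fcgr1, at 122.6 and 116.2, was close to the second peritoneal library (119.2). Mertk, at 324.9 and 557.9, lay above all gut libraries (50.7 to 120.8). Cd68, at 657.4 and 555.7, lay above both peritoneal libraries (153.7 and 137.2). Neutrophil transcripts were measured in the lung libraries as well. The 6 markers summed to 1125.8 and 2799.6 there, against 3.76 to 2460.0 in the other macrophage libraries. All 4 epithelial markers were detected, at 80.6 and 57.6.

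The bone marrow cells had low C1q. Monocytes measured 137.2 and 76.7 normalised reads of C1qa, 139.8 and 107.4 of C1qb, and 110.0 and 44.5 of C1qc. Neutrophils measured 239.8 and 255.0, 205.3 and 193.4, and 148.8 and 131.9 of the same chains, above both monocyte libraries for each. That order depends on the scaling, since the neutrophil columns had the largest deposited totals, which reached 1883301.4. As a share of all normalised reads, neutrophils had 0.0159% of C1qa, 0.0128% of C1qb and 0.00905% of C1qc, and monocytes 0.013%, 0.0149% and 0.00938% (means of 2 libraries). On that scale the neutrophil libraries lay within the range of the monocyte libraries for C1qa and C1qc, and 1 of them did for C1qb.

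Differences were tested on log2(value + 1.11) with limma, a linear model that shares the estimate of spread over the 18 libraries and 12014 tested genes. A chain was called where its p, adjusted by Benjamini and Hochberg over all tested genes of a comparison, was under 0.05 and its log2 fold change at least 1 in size. In lung macrophages all 3 chains fell against the mean of the other 6 macrophage populations, where 10.0% of all genes were called lower. The log2 fold change was -6.76 ± 0.339 (SE) for C1qa, -7.53 ± 0.314 for C1qb and -6.02 ± 0.329 for C1qc. The adjusted p-values by limma were 8.15e-11, 1.08e-11 and 2.73e-10. Within experiment 2, against spleen and Kupffer macrophages alone, the differences were as large, at -6.78, -7.32 and -6.34, and all 3 chains were called there (10.1% of genes lower). All 6 neutrophil markers were called higher in lung than in the other 6 populations (8.30% of genes higher), by 1.09 to 5.37, with S100a9, a calcium-binding protein of granulocytes, at 4.94. Of the 4 epithelial markers, Epcam and Cdh1 were higher, by 2.07 and 2.87, and Krt8 lower, at -2.74. Spleen libraries, with high C1q, had neutrophil sums that overlapped those of lung, and the part of such transcripts in the fall was not tested.

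Against the mean of the other 6 populations, the remaining high populations mostly came out above, with lung macrophages among the others. All 3 chains were called higher in microglia (12.3% of genes called higher), with log2 fold changes of 2.08, 1.75 and 1.47 for C1qa, C1qb and C1qc, and in large intestine (7.01%), with 1.60, 1.64 and 1.04. The C1qc call rested on the first microglia library, without which its adjusted p by limma was 0.053, and the calls of C1qa and C1qc in large intestine were lost without either of its libraries. The large intestine call of C1qc, at an adjusted p of 0.0478, ended in 14 of the 18 omissions of a library. It also ended with the smaller pseudocount, without the filter on low values, under equal library totals or quantile normalization, and with the transcripts of a gene summed. Of the 3 chains, 2 were called higher in small intestine (6.07% of genes), C1qa by 1.55 and C1qb by 1.54. In spleen (9.67%) the called chains were C1qa, by 1.24, and C1qc, by 1.19. Of the markers of other cells, 6 of 6 neutrophil, 4 of 4 erythroid and 3 of 3 B cell genes were also called higher in spleen, with medians of 4.88, 4.61 and 3.16. In Kupffer cells (6.37%) the called chains were C1qb, by 1.33, and C1qc, by 1.57. Leaving out either library of spleen or of small intestine, or the first Kupffer library, ended both calls of that population. In peritoneal macrophages limma called 0 chains (21.0% of genes called in either direction), with log2 fold changes of -0.76, 0.58 and -0.13 and 1 chain at an unadjusted p under 0.05.

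These differences changed when lung macrophages were left out of the others, an alternative chosen after seeing the data. Limma then called 0 chains in microglia (26.5% of genes called in either direction), spleen (18.5%), Kupffer cells (11.4%), small intestine (7.47%) and large intestine (10.5%). At an unadjusted p under 0.05 there was 1 chain in microglia and 0 in each of the other 4 populations. C1qa in microglia was nearest to a call, at 0.98 ± 0.344 with an adjusted p by limma of 0.0378. It was called under quantile normalization, at 1.05, and with the replicate block, at 1.19. In peritoneal macrophages C1qa fell by 1.94 on the log2 scale and C1qc by 1.17 against the other 5 (adjusted p by limma 4.01e-04 and 0.016; 14.1% of genes called lower). The C1qc call ended without either peritoneal library and under equal library totals or quantile normalization. C1qb, at -0.70, was not called.

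**Figure D2:**
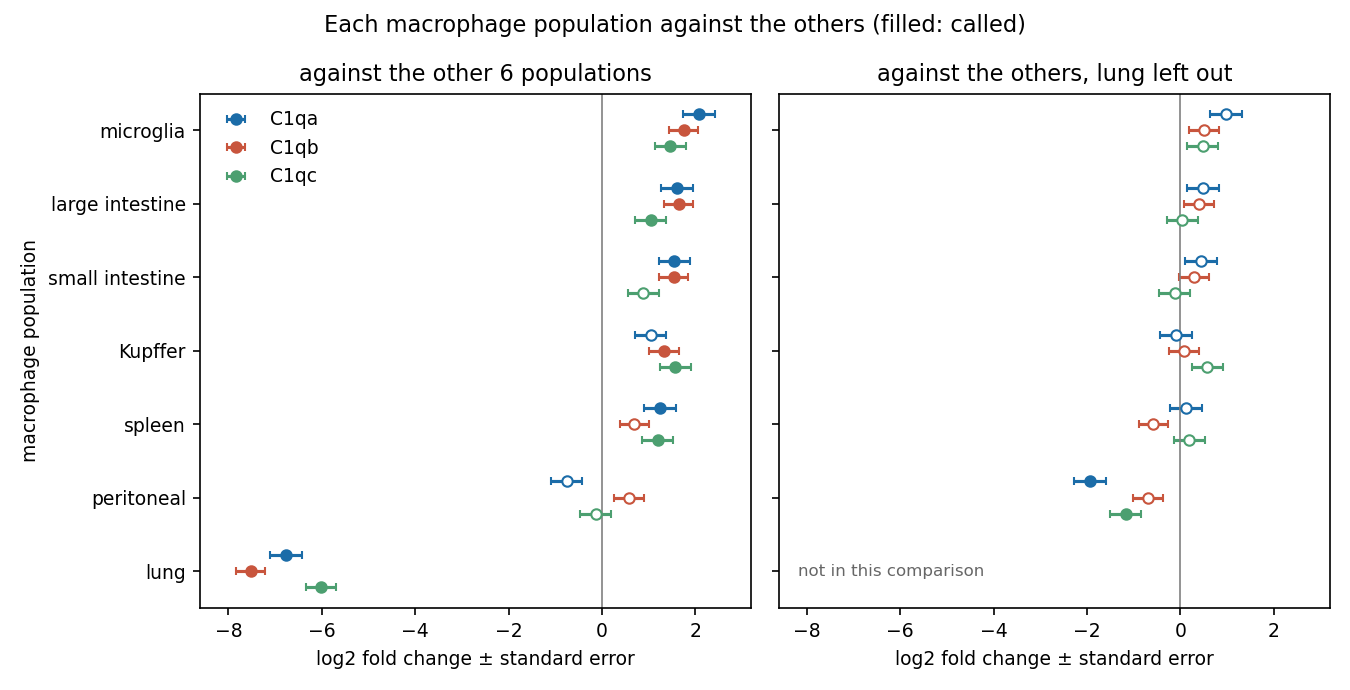
Log2 fold change of each chain in each macrophage population against the mean of the other 6 (left) and against the others with lung macrophages left out (right), with bars of 1 standard error and filled points for calls. Lung macrophages lie at -6.02 or lower on the left, and on the right the calls are C1qa and C1qc of peritoneal macrophages.

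The comparisons were repeated inside each experiment. In experiment 1 the called chains were C1qa in microglia, higher by 1.10 (13.2% of genes called higher), and C1qa and C1qc in peritoneal macrophages, at -2.15 and -1.08 (16.2% called lower). Limma called 0 chains there in small intestine (9.24% of genes called in either direction) and large intestine (10.4%), with 0 and 1 chains at an unadjusted p under 0.05. In experiment 2, where lung is 1 of the 2 other populations, all 3 chains were called higher in spleen (5.28%), by 2.93 to 3.52, and in Kupffer cells (4.94%), by 3.26 to 4.07.

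Neighbours in the order of levels mostly did not separate. By limma, 0 chains were called between microglia and large intestine (22.9% of genes called in either direction), large and small intestine (1.14%), small intestine and Kupffer cells (12.1%), or Kupffer cells and spleen (6.12%), and no chain of these had an unadjusted p under 0.05. The differences of C1qb, with standard errors of 0.411, were 0.09, 0.09, 0.18 and 0.55 on the log2 scale in these 4 comparisons, so that differences smaller than the call threshold remain possible. Between spleen and peritoneal macrophages (14.6% of genes called higher in spleen) the 1 call was C1qa, higher by 1.71 (adjusted p by limma 0.00801), which was lost without the first peritoneal or the second spleen library. Peritoneal macrophages exceeded neutrophils, the next lower population, for all 3 chains (17.7% of genes called higher), by 2.79, 4.83 and 3.39.

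Macrophages as a whole were far above the bone marrow cells. The mean of the 7 populations exceeded monocytes by 4.70 ± 0.336, 5.03 ± 0.310 and 4.49 ± 0.326 on the log2 scale for C1qa, C1qb and C1qc, where 10.3% of genes were called higher. It exceeded neutrophils by 3.44, 4.33 and 3.50, where 24.2% of genes were called higher. All 6 calls also held within experiment 2, with 3.42, 3.46 and 3.56 against monocytes (12.0% of genes) and 2.16, 2.76 and 2.57 against neutrophils (23.6%). Without lung the 6 differences were 4.36 to 6.10, with 3 chains called against monocytes (11.3% of genes) and 3 against neutrophils (24.7%). Setting all library totals equal moved the median of all genes against neutrophils to 0.943, against 0.343 with the deposited scaling, and raised the C1q differences with it.

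No chain was called higher in lung macrophages alone than in the bone marrow cells. All 3 chains were lower in lung macrophages than in neutrophils (14.8% of genes called lower), by log2 fold changes of -2.35, -2.12 and -1.66, and the C1qc call was lost without the first neutrophil or the second lung library and under equal library totals. Against monocytes the 1 call was C1qb, at -1.42 with an adjusted p by limma of 0.0217 (6.98% of genes called lower), and it was lost without the second lung library or either monocyte library. C1qa and C1qc measured -1.09 and -0.67 in that comparison. Between monocytes and neutrophils the 1 call was C1qa, at -1.26 with an adjusted p by limma of 0.046 (11.3% of genes called lower), and 11 of the 18 omissions of a library ended it.

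Traces of Kupffer cell transcripts were measured in experiment 2, which holds all the libraries with low C1q. Clec4f, a lectin whose expression marks Kupffer cells, measured 61.9 and 0.0 normalised reads in the lung libraries, 81.8 and 50.6 in monocytes, and 103.3 and 68.1 in neutrophils. It measured 41.9 and 100.8 in the spleen libraries, where C1q was high, and 0 in all 8 libraries of experiment 1. Set against the mean of the Kupffer libraries, the lung, monocyte and neutrophil values are 0.781% and 0.0%, 1.03% and 0.638%, and 1.3% and 0.859%. C1qb reached 0.994% and 0.243% of its Kupffer mean in the lung libraries, 1.54% and 1.18% in monocytes, and 2.26% and 2.13% in neutrophils. For C1qa the shares were higher in each of these libraries, up to 4.63% in neutrophils. All 4 Kupffer markers summed to 82.2 and 0.0 in lung, 104.8 and 66.0 in monocytes and 139.2 and 83.5 in neutrophils, with Vsig4 and Timd4 at 0 in both lung libraries. The second lung library held 20 to 25 reads of each chain with no read of any of these 4 markers. Of the spleen macrophage markers, it held 1.11 normalised reads of Spic, 2.21 of Vcam1 and 2.77 of Itgad. These are 0.165%, 0.161% and 0.997% of their spleen means. All 3 values are under the 3 reads that a count of 0 allows, worth 3.321 in that library. C1qa, C1qb and C1qc were there at 0.488%, 0.363% and 0.749% of their spleen means. In the first lung library the 3 markers were at 0.377%, 0.367% and 0.114%. They were at 0.334% to 2.15% in monocytes and 0.638% to 2.98% in neutrophils. The part of such transcripts in the low C1q values was not tested.

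**Figure D3:**
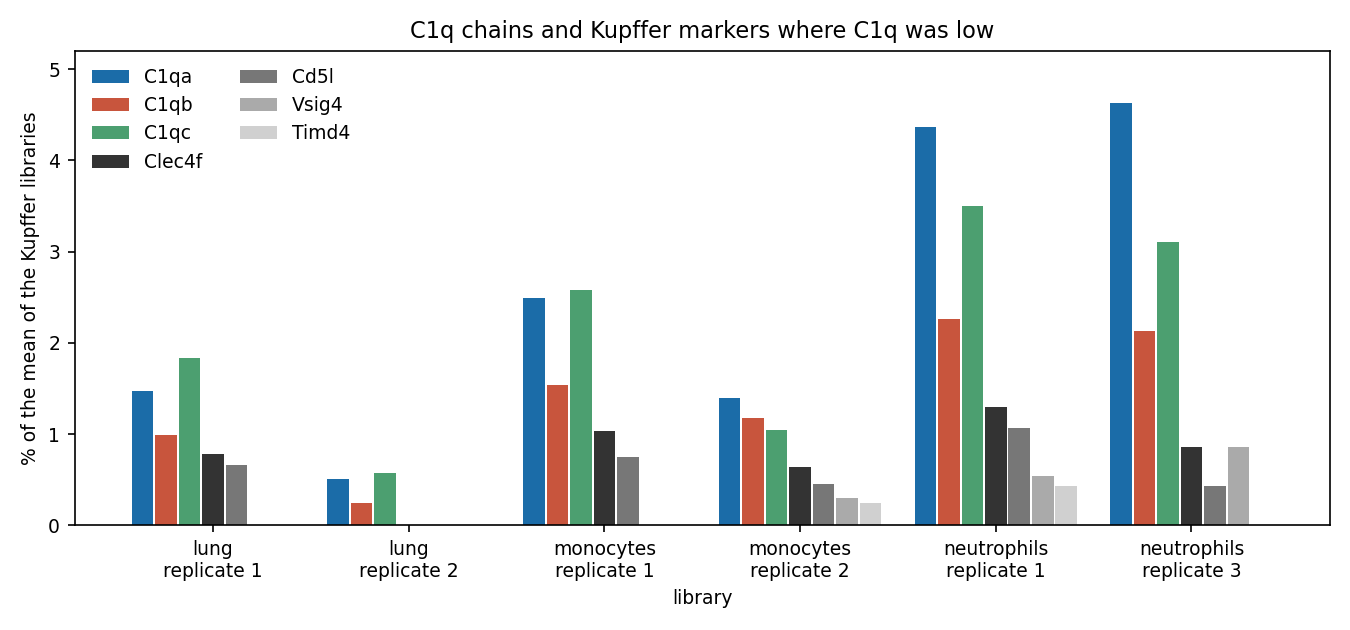
C1q chains (coloured bars) and 4 Kupffer cell markers (grey bars) in the lung, monocyte and neutrophil libraries, as a percentage of the mean of the 2 Kupffer libraries. C1qa reaches 4.63% in neutrophils, and in the second lung library the chains stay at 0.572% or below while all 4 markers are at 0.

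The proportions of the chains differed between populations. Per kilobase of transcript (1040 bases for C1qa, 1088 for C1qb and 1203 for C1qc in GENCODE M21), microglia had mean levels of 8969.4 normalised reads of C1qa, 10480.3 of C1qb and 3178.5 of C1qc. By these means C1qb was the highest chain per length in microglia, and it was so in all 6 populations with high C1q. By the means C1qc was the lowest chain per length in each of the 9 populations. Single libraries departed from both orders, also per length. The first peritoneal library held more C1qc (1583.8 normalised reads) than C1qa (1246.2). The second spleen library held more C1qa (6204.1) than C1qb (5759.3). Peritoneal macrophages had 1744.0, 5222.1 and 1232.7 per kilobase, and lung macrophages 52.2, 51.7 and 42.4. The libraries were made from oligo-dT captured, amplified and fragmented RNA, so levels of different genes may also differ in how well each was captured, while a ratio compared between populations does not depend on length.

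C1qa against C1qb was lowest in peritoneal macrophages. The log2 ratio of normalised reads was -2.22 and -1.22 in their libraries, -1.13 to 0.31 in the other 12 macrophage libraries, -0.31 and -0.27 in microglia among them, and -0.61 in both large intestine libraries. The 2 peritoneal libraries differed from each other by more than those of any other macrophage population. Libraries of 1 population had more alike values than libraries paired without regard to population: of all 135135 ways to pair the 14 macrophage libraries, a share of 0.00724 gave differences within pairs as small or smaller (exact permutation test, one-sided, adjusted p = 0.0109 over 3 ratios). Without peritoneal macrophages the adjusted p was 0.0721.

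C1qc against C1qb followed the experiments. The log2 ratio was -2.0 to -1.46 in the 8 libraries of experiment 1, and -1.25 to 0.13 in the 6 macrophage libraries of experiment 2, without overlap. Microglia averaged -1.58, large intestine -1.85, small intestine -1.89 and peritoneal macrophages -1.94, against -1.13 in Kupffer cells, -0.90 in spleen and -0.04 in lung. A difference of population and a difference of experiment cannot be told apart here. The exact permutation test gave p = 1.18e-04 over all pairings (adjusted p = 3.55e-04). Over the 1575 pairings within experiments the adjusted p was 0.0171, and 0.0508 when lung was also left out (315 pairings, an alternative chosen after seeing the data).

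C1qa against C1qc was high in microglia and the gut. The log2 ratio was 1.15 and 1.42 in microglia, 1.33 and 1.15 in large intestine, and 1.12 and 1.54 in small intestine, above every other library of the series. It was -0.35 and 0.78 in peritoneal macrophages, 0.06 and 0.18 in lung, 0.49 and 0.12 in Kupffer cells, and 0.62 and 0.97 in spleen. The microglia, gut and peritoneal libraries are of experiment 1 and all others of experiment 2. Apart from the contrast with peritoneal macrophages, a difference of population and a difference of experiment cannot be told apart here. The exact permutation test gave an adjusted p of 0.0432 over all pairings and 0.0273 within experiments, and leaving out any 1 of 6 populations (all but peritoneal) raised it to between 0.053 and 0.102. With 20 to 25 reads per chain, the second lung library's ratios carry a counting error of 0.42 to 0.45 on the log2 scale, against 0.02 to 0.06 in the 12 libraries with high C1q.

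**Figure D4:**
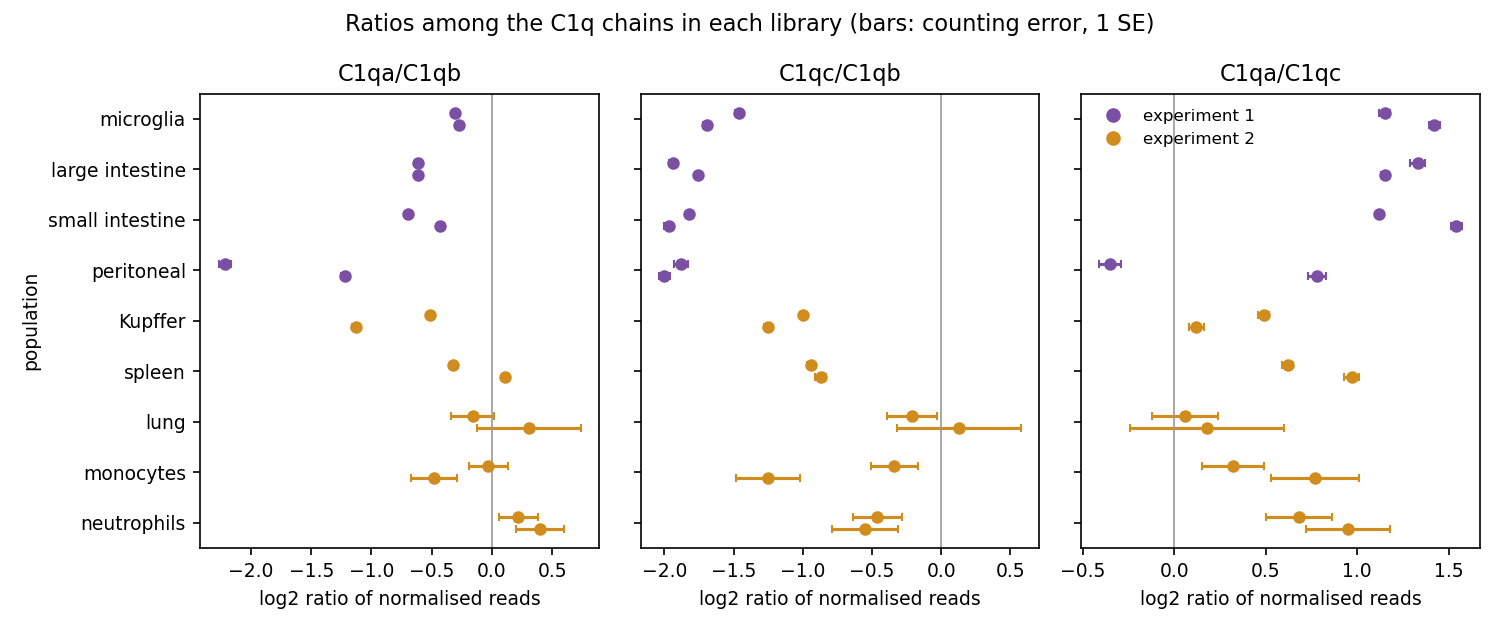
Log2 ratios of normalised reads among the 3 chains in each library, with bars of 1 standard error from read counting and colours for the experiments. For C1qc against C1qb the macrophage libraries of experiment 1 lie at -1.46 or lower and those of experiment 2 at -1.25 or higher.

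Among transcription factors known to act on C1q genes, Maf was low in the libraries in which the chains were low. It encodes c-Maf, a factor of the macrophage lineage in mice. Maf measured 3.79 and 0.0 normalised reads in lung macrophages, against 22.6 to 362.5 in the 12 libraries of the other macrophages, without overlap. It fell by 6.09 on the log2 scale in lung macrophages (SE 0.47, adjusted p by limma 2.07e-08). Each of the 27 other fits of this difference, those within experiment 2 included, called it lower too. Monocytes had 6.82 and 5.37 of Maf and neutrophils 1.38 and 0.0. The mean of the macrophages exceeded monocytes by 3.59 on the log2 scale, and this was called.

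The other factors had other patterns. Spi1, which encodes PU.1, measured 462.7 and 381.9 normalised reads in lung and 187.0 to 624.8 in the other macrophages, and its log2 fold change of 0.76 in lung was under the threshold. It was lower in macrophages than in neutrophils, by -1.76, a call lost under equal library totals. Nr1h3, which encodes the oxysterol receptor LXRα, was at 0 in each of the 2 microglia libraries, where C1q was highest, and was called lower there by limma at an adjusted p of 1.85e-08. The spleen and Kupffer libraries had 735.5 to 1064.6 of it. Of the 6 factors described here (Maf, Spi1, Irf8, Ppard, Rxra and Nr1h3), 0 rose and 1 fell in lung macrophages, with a median log2 fold change of 0.42, against -0.07 over all genes. Over all genes 8.30% were called higher and 10.0% lower there, so the count of 1 in 6 is near the background. Against monocytes 2 were higher in macrophages (Maf and Rxra) and 0 lower, where 10.3% of all genes were called higher and 7.42% lower. Against neutrophils 3 were higher and 1 lower, where 24.2% were called higher and 16.0% lower.

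**Figure D5:**
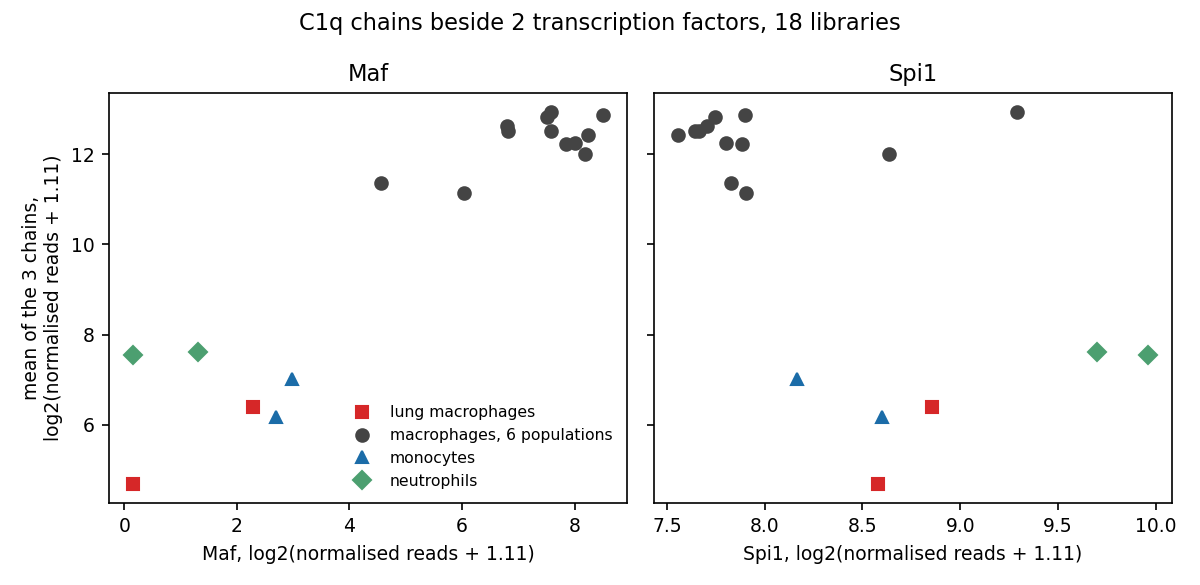
Mean of the 3 chains against the level of Maf and Spi1 in the 18 libraries, both axes as log2(normalised reads + 1.11). The libraries with high C1q lie at 22.6 normalised reads of Maf or above and the lung, monocyte and neutrophil libraries at 6.82 or below, while Spi1 is highest in neutrophils.

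Across the population means, each chain was most like the other 2. Over 9 populations, the 2 genes out of 12013 with the highest Pearson r to any chain were the other chains, with r of 0.986 to 0.991. Over the 7 macrophage populations they ranked between 1 and 8 of 12004. Apart from the chains, genes among the 8 most like their mean over 9 populations were Tmem37, a membrane protein (r = 0.978), Pdgfa, a platelet-derived growth factor chain (0.976), Ccnd1, cyclin D1 (0.958), and Pla2g4a, a phospholipase (0.955). Itga9, an integrin chain, B3galnt1 and Pdlim4 followed at 0.949. Over the 7 macrophage populations the list was led by Cd300a, an inhibitory receptor (0.995), Zfp467 (0.982) and Irf5, an interferon regulatory factor (0.979), followed by Zdhhc14, Mtmr12, B4galt6, Sec14l1 and Tmem37 at 0.969 to 0.975. The populations share the contrast between low and high C1q. Over the 6 populations without lung, r was 0.8 for C1qa with C1qb, 0.833 for C1qa with C1qc and 0.596 for C1qc with C1qb. There it was 0.173 for Tmem37, -0.137 for Ccnd1, 0.842 for Maf and 0.91 for Cd300a. These values describe 6 to 9 points, and a high r over them was chosen from many genes.

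The 2 measured genes near the cluster did not share its level. Of the 5 genes on each side in the RefSeq order, only these 2 were in the table. The nearest gene on each side was not, so its level is not known. Ephb2, an ephrin receptor, averaged 0.0 to 11.1 normalised reads over the 9 populations, and Zbtb40, a zinc finger gene, 3.85 to 18.1.

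The partners of C1q in the classical pathway had another pattern. Of 10 genes listed, 9 were in the table and 8 passed the filter on low values. In microglia 0 of these 8 were called higher and 6 lower (12.3% and 15.3% of all genes), with a median log2 fold change of -2.17, against -0.09 over all genes. C3, the central component, measured 0.0 and 2.78 normalised reads in microglia, against 46.6 to 145.0 in the other macrophage libraries, without overlap. It fell by 5.39 on the log2 scale (adjusted p by limma 8.18e-10). C2, the protease that joins C4b, and Serping1, the C1 inhibitor, had no read in either microglia library. Both were listed at 0 in peritoneal macrophages too. The 6 lower genes were C1ra, C1rb, C2, C3, C4b and Serping1, and those of C2, C3 and Serping1 kept their call in every other fit that tested them. The call of C1ra was lost without the first microglia library and that of C4b without the second, and that of C1rb was lost in 18 of 27 other fits. Low levels of C2 and C4b were not particular to microglia. C2 measured 1.18 and 2.33 in large intestine and 1.9 and 0.0 in lung. C4b measured 7.52 and 3.24 in microglia, 1.77 and 13.4 in large intestine, and 2.84 and 8.3 in lung.

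The substrates C4a and C4b, near-identical copies whose reads may have been shared out in an unknown way, were highest in peritoneal macrophages and Kupffer cells. C4b measured 471.2 and 389.4 normalised reads in peritoneal macrophages and 174.3 and 130.0 in Kupffer cells, against 55.8 or less in all other libraries. C2 was highest in spleen, at 75.7 and 83.3, and next in Kupffer libraries, at 41.6 and 45.4. C1s1, the protease that cuts C4 and C2, stayed at 13.6 or below in all libraries and did not pass the filter. C1ra, the protease that activates it, reached 28.6, in a Kupffer library.

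In lung macrophages 3 of the 8 partners fell (C2, C4a and C4b) and 1 rose (C3), where 10.0% of all genes fell and 8.30% rose, with a median of 0.23, against -0.07 over all genes. C3 measured 120.7 and 145.0 normalised reads in lung, against 65.6 to 126.8 in the spleen and Kupffer libraries, and its call was lost within experiment 2 and without the second lung library. The calls of C2 and C4a were each lost in 7 of 27 other fits and that of C4b in 2. Against monocytes 3 partners were higher in macrophages (C4a, C4b and Serping1) and 2 lower (C1rl and C3), beside 10.3% and 7.42% of all genes. The calls of C4a and Serping1 were lost without either monocyte library, and that of C1rl without the first. C3 was at 618.0 and 721.2 in monocytes and 1493.7 and 1655.1 in neutrophils, above every macrophage library, and was called lower in macrophages against both, by -3.72 and -4.95. Against neutrophils 4 partners were higher and 2 lower (24.2% and 16.0% of all genes), and of the higher ones the call of C2 was lost in 15 of 27 other fits.

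Proteins that bind C1q at the cell surface were counted in the same way. Of 12 listed, 11 were in the table and 10 were tested. In lung macrophages 1 rose and 2 fell, with a median of -0.11, and these counts are near the 8.30% and 10.0% of all genes that did. Lair1, an inhibitory receptor for collagens that also binds C1q, measured 58.8 and 42.1 normalised reads in lung and 599.5 and 489.5 in microglia. It was called lower in lung, at -1.66, and higher in microglia, by 2.33. Lair1 was also called lower in peritoneal macrophages, where C1q was high, at -3.59. The call in lung was lost without the second lung library. Itgam and Itgb2, the chains of complement receptor 3, were called in opposite directions in lung, at -3.59 and 1.55. Itgam was at 12.0 and 4.43 in lung, but also at 8.76 to 38.4 in spleen and Kupffer cells, and its call was lost within experiment 2. Calr, calreticulin, was at 1003.3 to 1995.4 in all macrophage libraries. In microglia 2 of the 10 were called higher (Itgam and Lair1) and 2 lower (Cd93 and Scarf1), beside 12.3% and 15.3% of all genes. The call of Itgam was lost within experiment 1 and that of Scarf1 without either microglia library. Against monocytes 2 were higher in macrophages (Calr and Lair1) and 0 lower (10.3% and 7.42% of all genes), and against neutrophils 5 were higher and 2 lower (24.2% and 16.0%).

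Other genes with a C1q domain, which is the globular head fold, were counted last. Of 26 listed, 20 were in the table and 9 were tested, since the other 11 did not pass the filter on low values. None of the C1q and TNF related genes other than C1qtnf12 exceeded 14.1 normalised reads in any library. In lung macrophages limma called 0 of the 9, where 8.30% of all genes were called higher and 10.0% lower. At an unadjusted p under 0.05 there was 1, and the median was 0.18, against -0.07 over all genes. In microglia 0 were called higher and 5 lower (12.3% and 15.3% of all genes), among them Emilin2, an elastin interface protein, by -3.91. Emilin2 was also lower in the mean of the macrophages than in monocytes, by -2.64. Peritoneal macrophages went the other way, at 1741.3 and 1259.2 normalised reads, against 386.2 and 389.0 in monocytes. The other macrophage libraries had 2.78 to 86.8. Against monocytes 0 were higher in macrophages and 2 lower, where 10.3% and 7.42% of all genes were. Against neutrophils 2 were higher and 1 lower, where 24.2% and 16.0% were.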

How the data were processed

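Per the labels' protocols, polyA RNA of sorted cells was captured on oligo-dT beads, reverse transcribed with indexed primers, pooled, amplified linearly by in vitro transcription and fragmented before sequencing. The alignment was to mm9, with TopHat, per the submitters' processing notes, while the sources used here state no version, read counter, annotation or normalization method. The deposited signal is 1 value per RefSeq transcript and library, called normalised reads. In each library most nonzero values (86.6% to 88.9%) were multiples of 1 step, with a tolerance of 0.01 read, as they would be if the authors divided counts by 1 factor per library. The rest were fractions of that step, so no count model was used. In units of the step the libraries held 588856 to 1581363 reads in genes, and the 3 reads that a count of 0 allows are worth 1.685 to 6.594 normalised reads. Intervals and limits from reads cover counting error only, since no molecular identifiers are stated.

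Of 20814 transcripts, 20372 (97.9%) matched a gene of the reference tables by RefSeq identifier. The others were kept under the symbol or identifier of the deposited values. Together these gave 16221 genes, with the transcript of the highest mean where a gene had several. The 12014 genes that reached 5.53 normalised reads in 2 or more libraries were tested, and all 3 chains passed. Values were analysed as log2(value + 1.11) with limma 3.58.1 in R 4.3.3, with 1 term per population, a mean-variance trend and 9 residual degrees of freedom. P-values were two-sided and adjusted by Benjamini and Hochberg over all tested genes within each comparison. Ratios were tested by an exact permutation over pairings of the 14 macrophage libraries, one-sided by construction, adjusted over the 3 ratios. The scripts were tested on simulated data. The replicate numbers in the titles were not taken to pair libraries: over 14 same-numbered pairs within an experiment, the deviations from the population means correlated at -0.04 to 0.014. Lists are described by counts, with up to 4 called and 3 other members named, and the most alike genes are the 8 with the highest Pearson r, predicted genes left out. 1 gene of the lists and of the 8 most alike is not reported here. The chains, the lists and the comparisons were chosen with earlier results of these data known. Promoters are from RefSeq GRCm38.p6, matched by symbol, and transcript lengths from GENCODE M21, matched by RefSeq identifier. Since the alignment used mm9, no position was compared with the reads. Tables were made with Python 3.11.15, numpy 2.4.6 and pandas 2.3.3, and plots with matplotlib 3.10.9.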

Additional observations from a re-analysis of the deposited data

How the results depend on the processing

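Each log2 difference was refitted under other pseudocounts, no filter, equal library totals, quantile normalization, precision weights, summed transcripts, a replicate block, within experiments, and without each of the 18 libraries in turn. Lung macrophages against the other macrophages, and macrophages against monocytes and neutrophils, kept all 3 calls in each of these fits. Peritoneal macrophages against neutrophils did too in each fit that could hold this comparison. The fits within experiments could not, since these populations come from different experiments. For the other 6 populations, the calls against the remaining macrophages depended on whether lung was among these. With lung left out, the deposited scaling and no block gave 0 calls in microglia, spleen, Kupffer cells, small intestine and large intestine. They gave 2 in peritoneal macrophages. C1qa in microglia was then called under quantile normalization (1.05, adjusted p by limma 0.0223). With the replicate block it was called too (1.19, adjusted p by limma 0.0108). Within experiments the calls numbered 1 in microglia, 2 in peritoneal macrophages and 0 in either gut population and in monocytes against neutrophils. Under quantile normalization peritoneal macrophages had 1. The call of monocytes against neutrophils also numbered 0 with the smaller pseudocount, no filter, equal totals, quantile normalization, precision weights and summed transcripts. Spleen against peritoneal macrophages had 2 calls with a pseudocount 5 times as large and with precision weights. Fits without 1 library gave 2 to 3 calls in microglia, 0 to 2 in spleen, 0 to 3 in Kupffer cells, 0 to 3 in small intestine, 1 to 3 in large intestine, 0 to 2 in monocytes against neutrophils, 0 to 3 in lung against monocytes, 2 to 3 in lung against neutrophils and 0 to 2 in spleen against peritoneal macrophages.

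Directions turned only for differences that were not called, with 1 exception. Against the other macrophages, C1qb of peritoneal macrophages was -0.91 within the experiment and -0.70 with lung left out, and their C1qc was 0.09 under equal totals, 0.29 under quantile normalization and -0.27 to 0.01 without 1 library. With lung left out, C1qb of spleen was -0.58, C1qa of Kupffer cells -0.09 and C1qc of small intestine -0.12. C1qb of monocytes against neutrophils was 0.20 under equal totals, and C1qc of lung against monocytes was -1.48 to 0.15 without 1 library. Between large and small intestine C1qa was -0.03 (equal totals), -0.17 (quantile) and -0.11 to 0.20 without 1 library, and C1qb -0.13 (quantile). Between small intestine and Kupffer cells C1qa was -0.03 and C1qb -0.30 under quantile normalization, and -0.19 to 1.07 and -0.14 to 0.50 without 1 library. Between Kupffer cells and spleen C1qa was -0.80 to 0.46 and C1qc -0.12 to 0.77 without 1 library. Between spleen and peritoneal macrophages C1qb was -0.10 under equal totals and -0.28 under quantile normalization. The exception is Cd93, called higher in macrophages than in neutrophils, which was -0.12 within experiment 2. The cause was not tested.

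With the replicate block, of 63 chain differences 56 kept direction and call, 3 lost their call and 2 gained 1; C1qb and C1qc between Kupffer cells and spleen turned to -0.05 and -0.10. The block left 1 call in Kupffer cells and 0 in small intestine, and gave 2 in lung against monocytes and 2 in spleen against peritoneal macrophages. Outside these 63, C1qa of microglia against the other macrophages without lung was called with the block, at 1.19.

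For the ratios, the adjusted p (exact permutation) of C1qa against C1qb was 0.0721 without peritoneal macrophages. That of C1qc against C1qb was 0.0508 within experiments without lung. For C1qa against C1qc it was 0.074, 0.053, 0.0712, 0.102, 0.0735 and 0.0724 without microglia, spleen, Kupffer, lung, small intestine and large intestine, and 0.0508 within experiments without lung. These alternatives have fewer libraries. Depth limits mainly the lung ratios, which rest on 20 to 143 reads per chain.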
